A study of Mus musculus with 6 samples.

Results

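The genes described here encode 7 chains of the fibril-forming collagens (Col1a1, Col1a2, Col3a1, Col5a1, Col5a2, Col5a3 and Col11a1) and 3 chains of the microfibril-forming collagen VI (Col6a1, Col6a2 and Col6a3). They were chosen by name as the main fibrillar and type VI chain genes of connective tissue, and all 10 were found by symbol among the 40879 gene symbols counted. Expression was measured in 6 libraries of stellate cells isolated from the livers of male wild-type mice, 3 kept for 24 h with APB-R3, an engineered interleukin-18 binding protein, and 3 kept for 24 h with vehicle. The labels used here give no strain or age. They also leave unsaid whether each replicate was its own animal or culture, so the p-values cover the spread among these 6 samples alone, and that spread may be technical. The unit of the APB-R3 dose is uncertain, since the series text gives 150 µg/ml and the protocol of the samples 150 µg/kg. The series asks whether APB-R3 attenuates the activation of stellate cells.

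Stellate cells store retinoids and wrap the sinusoids of the liver, and activated stellate cells are known as the main source of scar collagen. A collagen molecule is a triple helix of chains, built in the endoplasmic reticulum from single-chain precursors. Type I collagen joins a pair of α1(I) chains with an α2(I) chain and forms the bulk of liver scar, with type III, a homotrimer of Col3a1 chains, beside it. Types V and XI are minor fibrillar collagens that start fibrils and limit their width, and their chains can be found in mixed molecules. Collagen VI, assembled from Col6a1, Col6a2 and Col6a3 chains, forms beaded microfibrils around cells. The helix is a repeat of triplets that each begin with glycine, so the coding sequence repeats the glycine codon GGN followed by a pair of other codons.

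That repeat sets the families apart in the reference transcripts (GENCODE M21, build GRCm38). The longest uninterrupted run of glycine triplets held 338 triplets in Col1a1, 339 in Col1a2, 344 in Col3a1, 338 in Col5a1, 339 in Col5a2, 337 in Col5a3 and 338 in Col11a1. In the type VI genes it held 87 triplets in Col6a1, 87 in Col6a2 and 45 in Col6a3. The first 63 bases of the run are shown for 5 genes whose ratios are given below, with glycine codons in capitals.
Col1a1: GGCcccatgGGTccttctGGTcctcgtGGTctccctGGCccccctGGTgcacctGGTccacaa
Col1a2: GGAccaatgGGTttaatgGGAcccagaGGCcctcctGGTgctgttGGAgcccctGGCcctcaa
Col5a1: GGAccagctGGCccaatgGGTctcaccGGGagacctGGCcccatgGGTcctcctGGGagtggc
Col11a1: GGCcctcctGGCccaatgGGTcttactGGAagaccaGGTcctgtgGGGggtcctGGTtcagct
Col6a3: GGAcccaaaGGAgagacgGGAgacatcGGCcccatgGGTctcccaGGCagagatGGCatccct
The runs of Col5a1 and Col11a1 have the same length and were identical at 73.3% of 3042 bases. Those of Col1a1 and Col5a1, also of equal length, were identical at 48.2%. The runs were compared base by base without alignment, and only in the 5 pairs of equal length. None of these 5 pairs was near-identical in that comparison, in which a shift between 2 runs lowers the identity. Pairs of unequal length, such as Col1a1 and Col1a2, were not compared. In the same annotation Col3a1 and Col5a2 are neighbours on chromosome 1, on opposite strands, and Col6a1 and Col6a2 are neighbours on chromosome 10, on the same strand. No annotated antisense gene covered the 3′ end of any of the 10 genes.

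The libraries held between 8323809 and 10792531 counts, and the 10 genes together between 4359 and 6555 of them. The protocol reads a fragment near the 3′ end of each transcript, so a level in CPM, a gene's count scaled by the total of its library, does not grow with transcript length and can be set beside that of another gene. How efficiently each gene's 3′ end was primed and counted was not measured. The cultures held much endothelial RNA: 10 liver endothelial markers summed to 6104 to 6846 CPM in APB-R3 libraries and 6412 to 7003 CPM in vehicle libraries. In contrast, 14 stellate cell markers summed to 231 to 266 CPM in APB-R3 libraries and 227 to 242 CPM in vehicle libraries. Among these, Lrat, the enzyme that esterifies retinol for storage, had 1.80, 1.11 and 1.09 CPM in APB-R3 libraries, against 2.88, 1.32 and 1.90 CPM in vehicle libraries. Colec10 had 1 count over all 6 libraries. Collagen levels are thus levels of whole cultures, and fewer cells of a type cannot be told apart from less RNA per cell.

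The 10 genes fell into 5 abundant fibrillar chains and 5 chains with few counts. Averaged over the 6 libraries, the order ran from Col5a2 (174 ± 8.92 CPM) through Col1a1 (139 ± 14.6), Col1a2 (119 ± 16.2) and Col5a1 (77.0 ± 3.57) to Col3a1 (58.3 ± 6.22; SD, n = 6 each). Col5a2, the α2 chain of type V collagen, exceeded Col1a1 in 6 of 6 libraries, although the ranges of the 2 genes over the libraries overlapped. Col1a1 exceeded Col1a2 in 5 of 6. The other steps among these 5 genes held in 6 of 6 libraries with no overlap of ranges. A 13.7-fold gap separated Col3a1 from the next gene, Col6a2 (4.25 ± 1.40 CPM). Col6a1 (3.74 ± 1.02 CPM) and Col6a3 (3.47 ± 1.52 CPM) followed, and Col6a2, Col6a1 and Col6a3 did not separate, since each neighbouring pair kept its order in 3 of 6 libraries. Col5a3 (2.14 ± 0.867 CPM) and Col11a1 (2.0 ± 1.10 CPM) were lowest, and their order also held in 3 of 6.

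**Figure D1:**
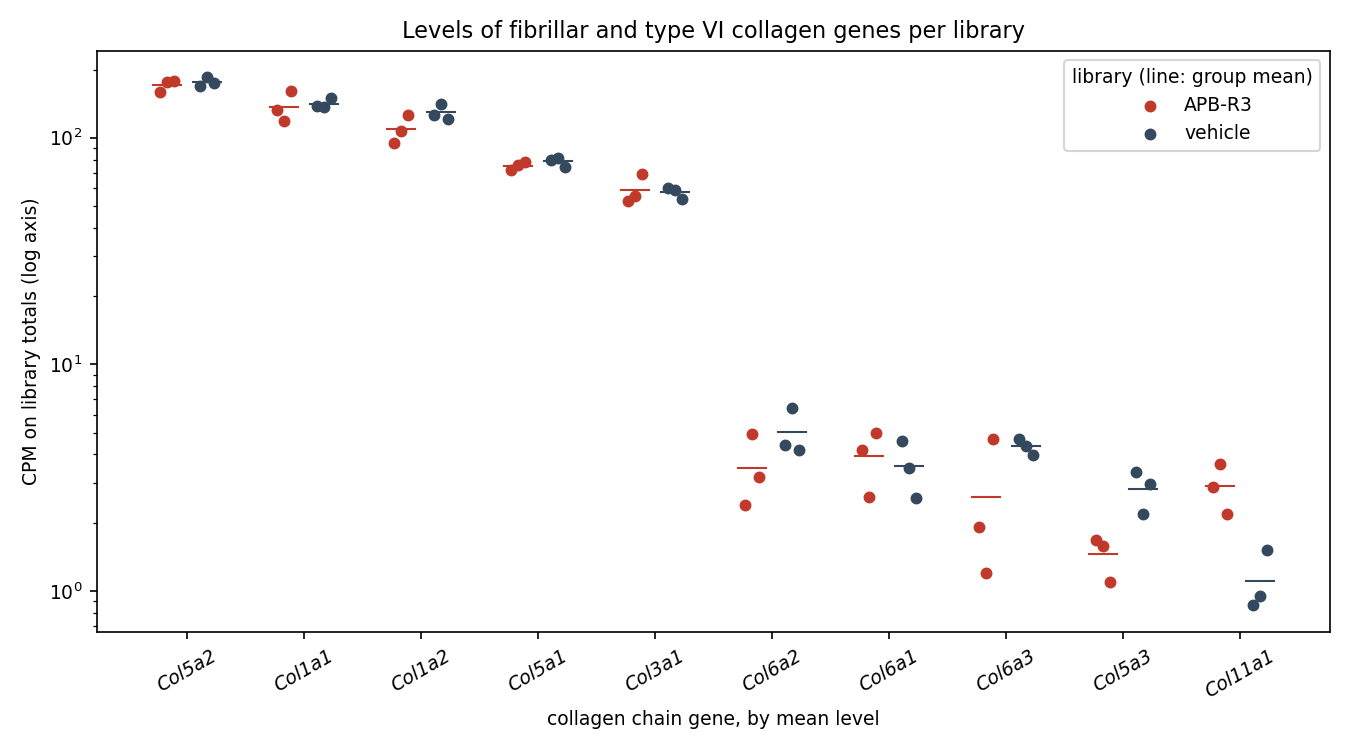
Level of each of the 10 collagen genes in each library, as CPM on library totals on a log axis, with genes ordered by their mean over 6 libraries. Points are libraries (3 with APB-R3, 3 with vehicle) and lines are group means. The 5 abundant fibrillar chains sit between 52.4 and 185 CPM and the other 5 genes between 0.863 and 6.43 CPM.

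None of the 10 collagen genes passed the comparison of APB-R3 with vehicle. Under edgeR's quasi-likelihood test with Benjamini-Hochberg adjustment over 12776 tested genes, the adjusted p was 0.9998 for each of them. No gene of the whole table passed either (0.0% called), and 0 passed with DESeq2 or limma-voom. An unadjusted p under 0.05 was found for 2 of the 10 genes, 1 higher with APB-R3 (Col11a1; 1.75% of all tested genes) and 1 lower (Col1a2; 1.57%). Over the table it was found for 425 genes (3.33%) with edgeR, 376 with DESeq2 and 427 with limma-voom. The 3 APB-R3 libraries did not overlap the 3 vehicle libraries in 2 of the 10 genes, against 8.91% of all tested genes. Col11a1 was the higher one (4.75% of all tested genes) and Col5a3 the lower one (4.16%). Col11a1 exceeded the count filter's level in 3 APB-R3 libraries and 1 vehicle library. It thus entered the test through the group in which it was higher, and its place in both counts is no support for a difference. Fold changes were below 0 on the log2 scale in 7 of the 10, with a median of −0.06, and in 6295 of the 12776 tested genes, with a median of 0.003.

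For type I collagen, the chain that differed more between the groups was α2. Col1a2 had 94.7, 107 and 126 CPM in the 3 APB-R3 libraries, against 126, 141 and 122 CPM in the 3 vehicle libraries. APB-R3 replicates 1 and 2 lay below every vehicle library, and replicate 3 lay among them. The log2 fold change was −0.25 (SE 0.11), with a 95% interval, not adjusted for the number of genes, from −0.47 to −0.02 and an unadjusted edgeR p of 0.0339 (adjusted p = 0.9998). It was −0.16 without APB-R3 replicate 1, and −0.09 without both that library and vehicle replicate 2. Col1a1 had 133, 118 and 161 CPM with APB-R3 and 138, 136 and 150.1 CPM with vehicle. Both the highest and the lowest library belonged to APB-R3, and the log2 fold change was −0.05 (SE 0.11), with an interval from −0.27 to 0.17. It was 0.04 without APB-R3 replicate 2.

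Col3a1, the chain of type III collagen, had 52.4, 55.4 and 69.4 CPM in APB-R3 libraries and 60.2, 59.0 and 53.5 CPM in vehicle libraries. The vehicle libraries lay within the range of the APB-R3 libraries, and the log2 fold change was 0.03 (SE 0.12), with an interval from −0.22 to 0.28. Its sign turned without APB-R3 replicate 3 (−0.09) or vehicle replicate 3 (−0.02).

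The abundant type V chains varied least of all 10 genes. Col5a1, the α1(V) chain, had 72.1, 75.6 and 78.5 CPM with APB-R3 and 79.9, 81.5 and 74.4 CPM with vehicle. Col5a2 had 159, 176 and 178 CPM with APB-R3, against 170.0, 185 and 175 CPM with vehicle. The groups overlapped in both genes. The coefficient of variation over the 6 libraries was 4.63% for Col5a1 and 5.13% for Col5a2, against 3.58% and 2.38% from counting alone, whereas it was 10.5% for Col1a1, 13.5% for Col1a2 and 10.7% for Col3a1. The log2 fold change was −0.07 (SE 0.10) for Col5a1 and −0.05 (SE 0.09) for Col5a2. For Col5a1, leaving out APB-R3 replicate 1 gave −0.04, leaving out vehicle replicate 2 gave −0.03, and leaving out vehicle replicate 3 gave −0.11. For Col5a2, these values ranged from −0.08 with vehicle replicate 1 left out to −0.005 with vehicle replicate 2 left out, and −0.007 was found with APB-R3 replicate 1 left out. The sign of Col5a2 turned, at 0.04, when APB-R3 replicate 1 and vehicle replicate 2 were left out together. For the 5 abundant chains the intervals, not adjusted for the number of genes, lay between 0.720-fold and 1.22-fold of vehicle.

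**Figure D2:**
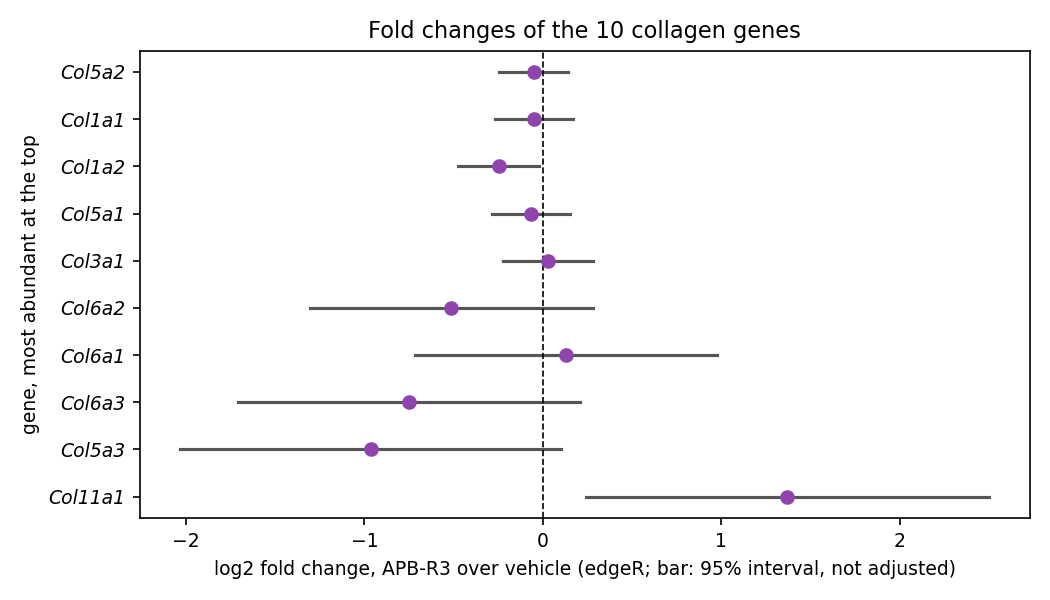
Log2 fold change of APB-R3 over vehicle from edgeR (points) with its 95% interval, not adjusted for the number of genes (bars), for the 10 collagen genes in order of mean level. The intervals of the 5 abundant chains are narrow and close to 0, and those of the 5 genes with few counts reach from −2.03 to 2.50.

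The minor fibrillar chains Col5a3 and Col11a1 were the only ones of the 10 genes whose groups did not overlap, and they lay in opposite directions. Col11a1, the α1 chain of type XI collagen, best known from cartilage, had 2.88, 3.61 and 2.18 CPM in APB-R3 libraries (24, 39 and 22 counts), against 0.863, 0.946 and 1.52 CPM in vehicle libraries (9, 10 and 16 counts). Every APB-R3 library lay above every vehicle library. The log2 fold change was 1.37 (SE 0.54), with an interval from 0.24 to 2.50 and an unadjusted edgeR p of 0.0198 (adjusted p = 0.9998). Leaving out each library in turn gave 1.17 to 1.66. Col11a1 exceeded the count filter's level of 0.955 CPM in 3 APB-R3 libraries and in 1 vehicle library, so it entered the test through the group in which it was higher.

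Col5a3, the α3 chain of type V collagen, had 1.68, 1.58 and 1.09 CPM in APB-R3 libraries (14, 17 and 11 counts) and 3.36, 2.18 and 2.95 CPM in vehicle libraries (35, 23 and 31 counts). Every APB-R3 library lay below every vehicle library. The log2 fold change was −0.96 (SE 0.51), with an interval from −2.03 to 0.10 and an unadjusted edgeR p of 0.0744 (adjusted p = 0.9998), and it was −1.11 to −0.79 with each library left out in turn. Counting alone gives a coefficient of variation of 21.4% at the mean count of Col5a3 and 22.4% at that of Col11a1. These coefficients cover counting error only, whereas the edgeR intervals also include the spread between libraries.

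The 250 bases before the RefSeq start (build GRCm38.p6) are shown for these 2 genes, since they are the ones whose groups did not overlap. The sequence of Col11a1 is chr3:114030290-114030539 on the plus strand and that of Col5a3 is chr9:20815068-20815317 on the minus strand. Capitals mark matches on either strand to GGGCGG (a GC box) or CCAAT.
Col11a1: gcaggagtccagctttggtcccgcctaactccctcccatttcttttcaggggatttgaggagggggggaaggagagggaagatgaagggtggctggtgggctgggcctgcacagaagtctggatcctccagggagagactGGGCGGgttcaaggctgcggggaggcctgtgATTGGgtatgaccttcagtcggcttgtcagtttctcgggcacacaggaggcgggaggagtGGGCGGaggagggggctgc
Col5a3: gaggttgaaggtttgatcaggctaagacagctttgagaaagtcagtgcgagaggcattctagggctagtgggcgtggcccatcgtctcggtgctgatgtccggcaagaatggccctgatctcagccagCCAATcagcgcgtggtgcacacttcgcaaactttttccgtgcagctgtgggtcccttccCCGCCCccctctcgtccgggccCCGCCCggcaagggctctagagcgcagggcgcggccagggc
Each window held 2 matches to GGGCGG and 1 to CCAAT, and none to TATAAA. Of 32851 RefSeq windows of the same length, 32.7% held GGGCGG, 33.8% held CCAAT and 12.4% held TATAAA. A match describes these letters and shows no binding, and the 2 sequences do not differ in the number of matches. Of the 10 genes, 8 had a window in the RefSeq table.

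The type VI chains had few counts and wide intervals. Col6a3, the largest of the 3 chains, had 1.92, 1.20 and 4.67 CPM with APB-R3 and 4.70, 4.35 and 4.0 CPM with vehicle. APB-R3 replicates 1 and 2 lay below every vehicle library and replicate 3 lay among them. The log2 fold change was −0.75 (SE 0.46), with an interval from −1.71 to 0.21. It moved to −1.48 without APB-R3 replicate 3 and to −0.40 without APB-R3 replicate 2. Col6a2 had 2.40, 4.91 and 3.18 CPM with APB-R3, against 4.41, 6.43 and 4.19 CPM with vehicle. APB-R3 replicates 1 and 3 lay below every vehicle library and replicate 2 did not. Its log2 fold change was −0.51 (SE 0.38), −0.85 without APB-R3 replicate 2 and −0.28 without vehicle replicate 2. Col6a1 had 4.20, 2.59 and 4.96 CPM with APB-R3, against 4.60, 3.50 and 2.57 CPM with vehicle. The groups overlapped almost wholly, and the log2 fold change of 0.13 (SE 0.41) turned without APB-R3 replicate 3 (−0.07) or vehicle replicate 3 (−0.06). The lowest library thus differed between the 3 chains: APB-R3 replicate 2 for Col6a3, APB-R3 replicate 1 for Col6a2 and vehicle replicate 3 for Col6a1.

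Summed over the 7 fibrillar genes, the level was 515, 538 and 617 CPM in APB-R3 libraries and 578, 606 and 579 CPM in vehicle libraries. The groups overlapped through APB-R3 replicate 3, the library with the highest sum. The type VI sum was 8.53, 8.71 and 12.8 CPM with APB-R3 and 13.7, 14.3 and 10.8 CPM with vehicle, and here too APB-R3 replicates 1 and 2 lay below every vehicle library. The 4 chains of types V and XI together (251 ± 13.5 CPM with APB-R3, 259 ± 9.17 CPM with vehicle; SD, n = 3 each) were counted at a level near that of the 2 type I chains (247 ± 35.1 CPM with APB-R3 and 271 ± 6.74 CPM with vehicle). Within the fibrillar sum Col5a2 took 30.8% ± 1.94 with APB-R3 and 30.1% ± 0.583 with vehicle, and Col1a1 took 24.6% ± 2.28 with APB-R3 and 24.1% ± 1.72 with vehicle. Col4a1 and Col4a2, the main chains of basement membrane collagen, which both endothelial and stellate cells are known to make, summed to a mean of 3189 CPM over the 6 libraries, 5.57 times the fibrillar sum. The 2 chains together had 3126, 3159.6 and 3163 CPM in APB-R3 libraries, against 3211, 3175 and 3299 CPM in vehicle libraries.

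APB-R3 replicate 1 held the lowest level of 5 of the 10 genes and lay below the gene's mean log2 level for 8 of them. APB-R3 replicate 2 lay below the mean for 7, APB-R3 replicate 3 for 2, and the vehicle libraries for 3, 3 and 4. APB-R3 replicate 1 is also the library with the smallest total and with 36.5 CPM of the cytokine gene Il1b, against 0.476 to 2.28 CPM in the other 5. Vehicle replicate 2, which held the highest level of 4 of the 10 genes, had 18.9 CPM of the hepatocyte gene Hpx, against 0.185 to 1.14 CPM elsewhere. The part of either difference in the collagen values was not tested. Without both libraries, 0 of the 10 genes passed.

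**Figure D3:**
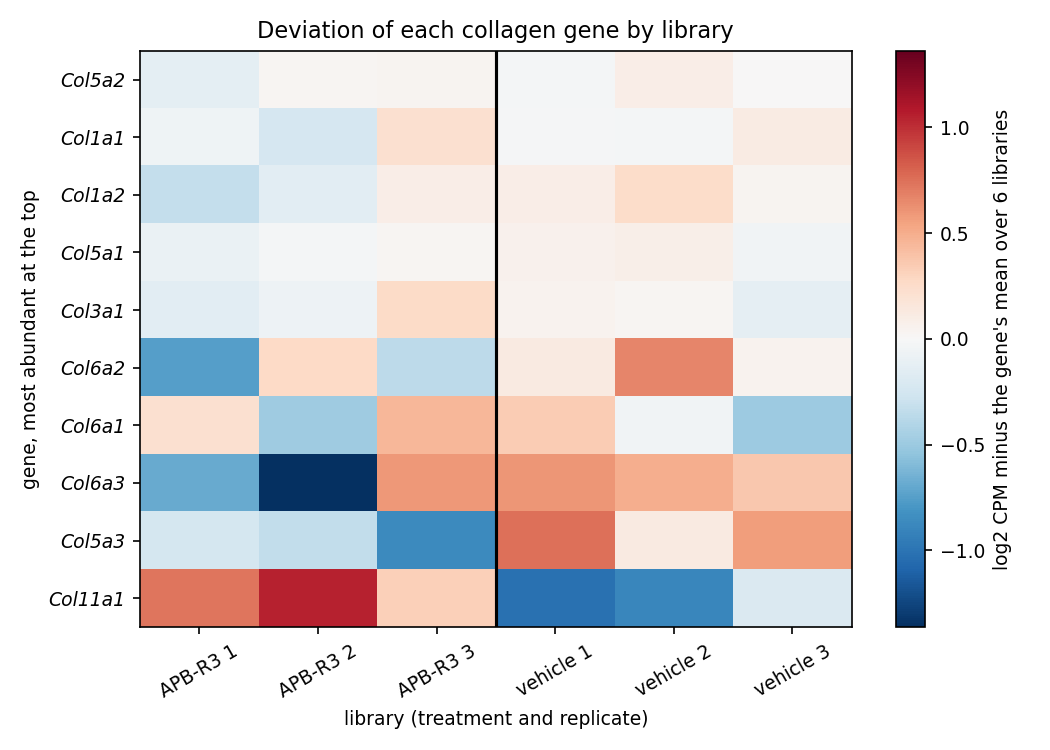
Deviation of each collagen gene's log2 CPM from its own mean over the 6 libraries (colour; red above, blue below), with libraries in columns, APB-R3 left of the line and vehicle right of it. The 5 abundant chains in the upper rows deviate little. Col5a3 and Col11a1 change colour at the line in opposite directions, and Col6a3 is blue in 2 of 3 APB-R3 libraries.

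Ratios between 2 genes within a library do not depend on scaling between libraries. In all, 8 ratios were compared with a two-sided exact permutation test on log2 ratios, which cannot go below p = 0.1 with 3 against 3 libraries, so none could reach 0.05. Col5a1/Col5a2 was 0.454, 0.429 and 0.440 in APB-R3 libraries and 0.470, 0.441 and 0.426 in vehicle libraries (exact permutation p = 0.8, adjusted p = 0.8). Col5a1 was counted less than Col5a2 in every library, although the common form of type V collagen contains more α1(V) than α2(V) chains. The former is a count of RNA 3′ ends and the latter a number of protein chains, which are unlike measures. Col3a1/Col1a1 was 0.395, 0.469 and 0.432 with APB-R3, against 0.438, 0.433 and 0.356 with vehicle (exact permutation p = 0.7, adjusted p = 0.8). The direction of both turned with a library left out.

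Col1a1/Col1a2 was 1.40, 1.10 and 1.27 in APB-R3 libraries and 1.09, 0.970 and 1.23 in vehicle libraries. The means were 1.26 ± 0.150 with APB-R3 and 1.10 ± 0.132 with vehicle (SD, n = 3 each; exact permutation p = 0.2, adjusted p = 0.4), and the groups overlapped. In both groups this ratio of RNA counts lay below that of the protein chains in the heterotrimer. There α1(I) is present in excess of α2(I), as a pair to a single chain. RNA counts and protein chains are unlike measures, and how efficiently each 3′ end was counted was not measured.

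The ratios with Col5a3 and Col11a1 separated the groups, as did one ratio of type VI chains. Col11a1/Col5a1 was 0.0400, 0.0478 and 0.0278 with APB-R3 and 0.0108, 0.0116 and 0.0205 with vehicle. Col5a3/Col5a1 was 0.0233, 0.0208 and 0.0139 with APB-R3 and 0.0420, 0.0267 and 0.0396 with vehicle. Both share Col5a1 as the denominator, whose level varied little, so these ratios repeat the difference in the minor chains. Col6a3/Col6a1 was 0.457, 0.464 and 0.940 in APB-R3 libraries, against 1.02, 1.24 and 1.56 in vehicle libraries. Each of these 3 ratios had an exact permutation p of 0.1, the smallest possible, and an adjusted p of 0.267 over the 8 ratios. Any ratio whose groups do not overlap gets this p of 0.1, so it adds nothing to the lack of overlap. The difference of mean log2 ratios was 1.42 for Col11a1/Col5a1, −0.88 for Col5a3/Col5a1 and −1.08 for Col6a3/Col6a1. The pooled standard deviation was 0.44, 0.37 and 0.46 in that order, for ratios already picked as not overlapping. The other ratios of type VI chains were unstable. Col6a1/Col6a2 was 1.75, 0.528 and 1.56 with APB-R3 and 1.04, 0.544 and 0.614 with vehicle (exact permutation p = 0.4, adjusted p = 0.64). Col6a3/Col6a2 was 0.800, 0.245 and 1.47 with APB-R3 and 1.07, 0.676 and 0.955 with vehicle (exact permutation p = 0.8, adjusted p = 0.8).

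**Figure D4:**
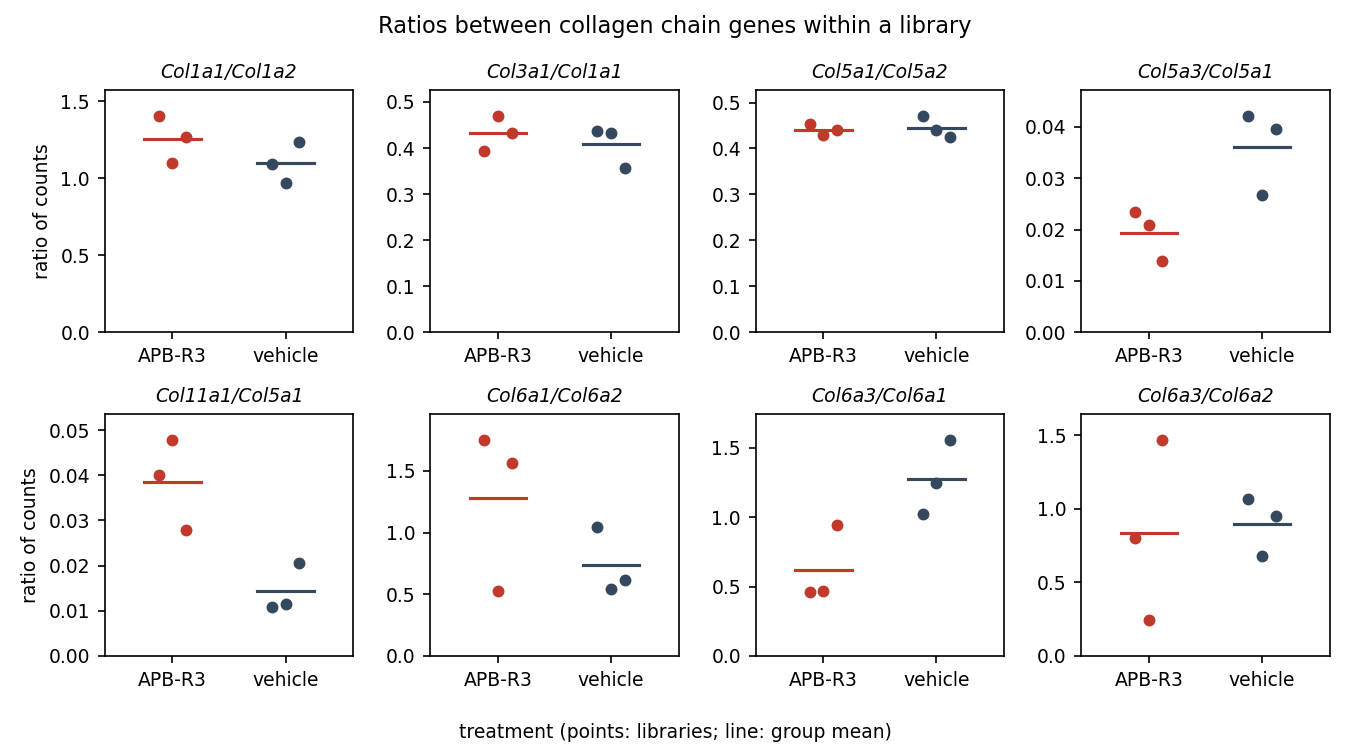
Ratio of the counts of 2 collagen genes within each library, 1 panel a ratio, each axis starting at 0; points are libraries and lines are group means, with APB-R3 left of vehicle. The groups do not overlap for Col5a3/Col5a1, Col11a1/Col5a1 and Col6a3/Col6a1, and overlap for the other 5 ratios.

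The genes that make, modify, bind and remove collagen were counted from 10 lists with 105 entries, of which 104 were found and 76 tested. Of these 76 genes, 0 passed the test over all genes and 5 had an unadjusted p under 0.05, where 3.33% of all tested genes did. A log2 fold change below 0 was found for 46 (median −0.03, against 0.003 over all tested genes). Chain folding and modification had 7 of 19 tested genes above 0 and 12 below, with a median of −0.02. P4hb, the β subunit of prolyl 4-hydroxylase, was the most abundant at 358 ± 16 CPM with APB-R3 and 359 ± 21.4 CPM with vehicle (SD, n = 3 each). Serpinh1, the collagen chaperone HSP47, named after its values were seen, had 151 ± 26.4 CPM with APB-R3 and 153 ± 23.2 CPM with vehicle. P3h2, a prolyl 3-hydroxylase, had the smallest p in this list, at a log2 fold change of −0.58 (SE 0.31).

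Propeptide cleavage and crosslinking had 6 of 10 tested genes above 0 and 4 below (median 0.06). Loxl2, a lysyl oxidase that crosslinks collagen, was the most abundant at 606 ± 74.7 CPM with APB-R3 and 630.3 ± 33.3 CPM with vehicle. Loxl3, of the same enzyme family, had the smallest p, with 14.8 ± 0.332 CPM with APB-R3 and 17.7 ± 2.05 CPM with vehicle. On library totals its highest APB-R3 library, at 15.2 CPM, was under its lowest vehicle library, at 15.3 CPM, where 4.16% of all tested genes were lower without overlap. With totals scaled by TMM factors, the groups of Loxl3 overlapped (15.29 CPM in APB-R3 replicate 2, 15.26 CPM in vehicle replicate 3).

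Of 6 tested genes for proteins that bind fibrils, 5 were below 0 (median −0.09). The groups did not overlap in 3 of the 6, all lower with APB-R3 (Bgn, Lum and Postn), where 4.16% of all tested genes were lower without overlap. Lum, a small proteoglycan that regulates fibril assembly, had the smallest p, at −1.87 (SE 0.70), with 15 counts over the APB-R3 libraries and 61 over the vehicle libraries. It had 0.841, 0.463 and 0.298 CPM with APB-R3, all under the count filter's level of 0.955 CPM. With vehicle it had 2.78, 1.42 and 1.62 CPM, all over that level. Lum thus entered the test through the group in which it was higher. Sparc, a collagen-binding matricellular protein, was the most abundant at 6162 ± 134 CPM with APB-R3 and 6396 ± 405 CPM with vehicle.

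Collagen receptors and uptake genes had 3 of 10 tested genes above 0 and 7 below (median −0.05). Itgb1, the β1 subunit of the collagen-binding integrins, had 1164 ± 121 CPM with APB-R3 and 1218 ± 75.9 CPM with vehicle. Lair1, an inhibitory collagen receptor of leukocytes, had the smallest p at a log2 fold change of 0.72 (SE 0.32). The collagen breakdown list, which holds proteases and their inhibitors of the Timp family, had the highest median among the collagen-related lists, 0.18, with 7 of 9 tested genes above 0. On library totals the groups did not overlap in 4 of the 9, all higher with APB-R3, where 4.75% of all tested genes were higher without overlap. These were the proteases Mmp9, Mmp14 and Ctsk and the inhibitor Timp1, whose log2 fold change of 0.18 (SE 0.13) is itself the list's median. The lack of overlap of Mmp14 depended on the scaling. With totals scaled by TMM factors, its lowest APB-R3 library (526 CPM) lay under its highest vehicle library (531 CPM). Genes higher without overlap then numbered 566 over the table, against 607 on library totals. The 2 genes below 0 were the inhibitors Timp2 (−0.25, SE 0.12) and Timp3 (−0.10, SE 0.09). The gelatinase gene Mmp9 had the smallest p in it, at 36.8, 22 and 27.7 CPM with APB-R3, against 20.6, 16.3 and 11.1 CPM with vehicle. Mmp14, a membrane-bound collagenase, was the most abundant, with 573 ± 50.5 CPM with APB-R3 and 509 ± 27.7 CPM with vehicle. Mmp9 had an unadjusted edgeR p of 0.000617 and an adjusted p of 0.9998.

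Regulators of collagen genes had 6 of 13 tested genes above 0 and 7 below (median −0.02). Ccn2, the TGF-β-induced matricellular gene, was the most abundant at 3285 ± 172 CPM with APB-R3 and 3472 ± 350.0 CPM with vehicle. Fli1, a transcription factor that represses type I collagen genes, had the smallest p at −0.19 (SE 0.12).

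Among the other collagen genes, all 3 tested fibril-associated chains were below 0 (median −0.27), of which Col14a1 was the most abundant and had the smallest p, at 11.2 ± 3.07 CPM with APB-R3 and 13.4 ± 3.07 CPM with vehicle. Col27a1, the only other fibrillar chain tested, had 11 ± 2.42 CPM with APB-R3 and 12.2 ± 2.87 CPM with vehicle. All 5 tested basement membrane chains were below 0 (median −0.07), with Col4a1 the most abundant and the smallest p for Col15a1, at −1.12 (SE 0.65). Col15a1 had 0.721, 0.556 and 2.08 CPM with APB-R3 and 1.05, 2.08 and 4.19 CPM with vehicle. Only its vehicle libraries all exceeded the filter's level of 0.955 CPM, so it entered the test through the group in which it was higher. The type VI genes Col6a4, Col6a5 and Col6a6 had 0 counts in all 6 libraries. That allows a level of up to 0.0494 CPM each over the libraries together, from 3 counts and for counting error only.

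**Figure D5:**
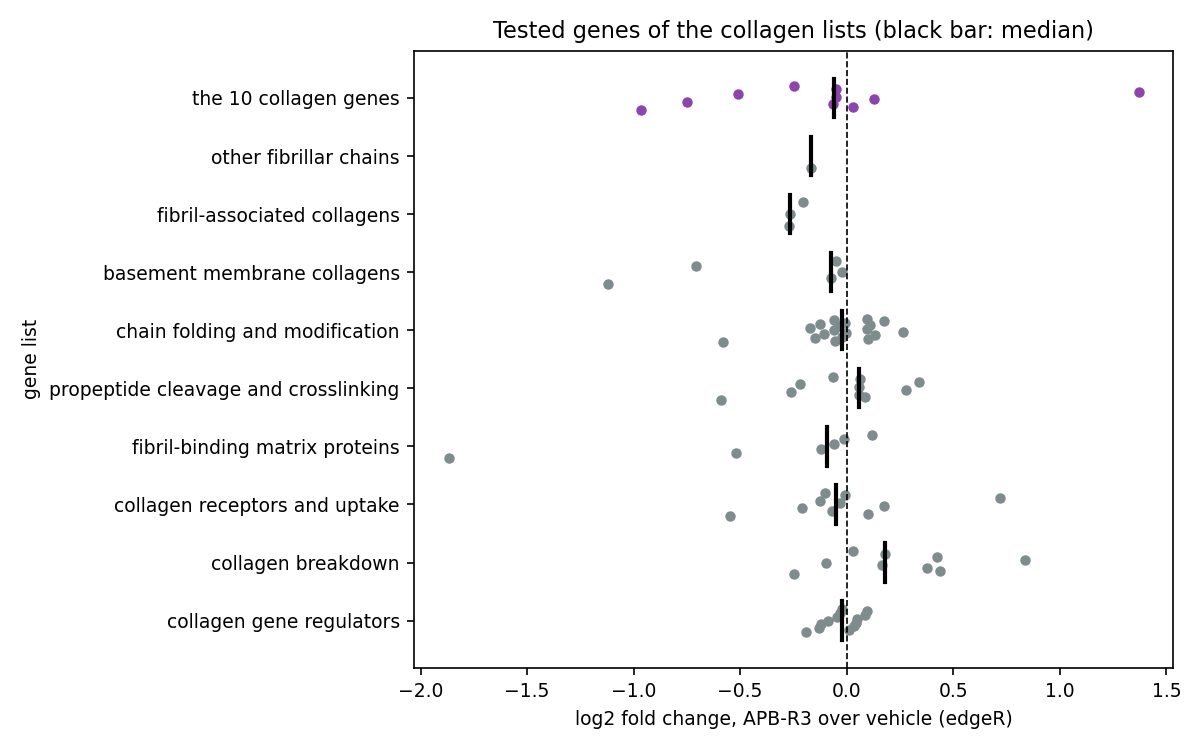
Log2 fold change of APB-R3 over vehicle from edgeR for each tested gene (points) of the 10 collagen genes and of the lists of collagen-related genes, with the list's median as a black bar. Medians lie between −0.27 for fibril-associated collagens and 0.18 for collagen breakdown, and 0 of the genes shown passed the test.

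None of the markers of cells that could supply these transcripts passed the test. Of 12 tested stellate cell markers, 8 had log2 fold changes above 0, where 6481 of the 12776 tested genes did, and 0 passed. The 4 below 0 included Des (−0.57, SE 0.36), with the smallest p of the list, and Lrat (−0.62, SE 0.58). The 10 liver endothelial markers had 8 genes below 0. Of 7 contractile genes listed for activated stellate cells, 5 were below 0. The 7 together summed to 2321 to 2459 CPM with APB-R3 and 2435 to 2576 CPM with vehicle. Most of this sum came from Tpm1 (1176 ± 83.7 CPM with APB-R3, 1200 ± 24.7 CPM with vehicle) and Cald1 (878 ± 49.2 CPM with APB-R3, 861 ± 13.6 CPM with vehicle). Which cells supplied these transcripts was not tested. Acta2, the smooth muscle actin of this list, had 103, 108 and 80.6 CPM with APB-R3, against 133, 131 and 129 CPM with vehicle. Its log2 fold change was −0.43 (SE 0.11), with an unadjusted edgeR p of 0.0008, and it did not pass (adjusted p = 0.9998). Cnn1, a calponin of the same list, lay the other way, with 1.80, 2.69 and 2.18 CPM with APB-R3 and 1.25, 1.51 and 1.14 CPM with vehicle. Cnn1 had far fewer counts (66 with APB-R3 and 41 with vehicle, against 2835 and 4129 for Acta2). Its log2 fold change was 0.77 (SE 0.55), with an unadjusted edgeR p of 0.178, and it did not pass either. Neither gene's groups overlapped, where 4.16% of all tested genes were lower and 4.75% higher without overlap. APB-R3 replicate 3, with the lowest Acta2 level, had the highest levels of Col1a1, Col3a1 and Col6a1. Portal fibroblast and mesothelial markers summed to 88.5 to 116 CPM with APB-R3 and 105 to 122 CPM with vehicle, and Gli1 was at 0 counts. Most of that sum came from Fbln2 (54.3 to 78.7 CPM over all libraries) and Cd34 (29.4 to 39.2 CPM). Macrophage markers summed to 368 to 556 CPM with APB-R3 and 336 to 483 CPM with vehicle. Vascular smooth muscle markers summed to 95.4 to 113 CPM with APB-R3 and 98.4 to 109 CPM with vehicle, with Myocd at 0 counts. Nearly all of the smooth muscle sum was Smtn (91.5 to 107 CPM over all libraries), with Myh11 at 1.09 to 4.26 CPM. Cholangiocyte markers summed to 33.3 to 56.0 CPM with APB-R3 and 35.6 to 44.8 CPM with vehicle, mostly from Spp1 (28.4 to 48.1 CPM over all libraries). Hepatocyte markers summed to 22.2 to 34.2 CPM with APB-R3 and 25.1 to 94.1 CPM with vehicle, the highest value in vehicle replicate 2. Their part in the collagen levels was not tested.

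Candidates for a similar pattern over the 6 libraries were 6506 or 6507 tested genes with a mean of at least 20 CPM and a count in every library. Predicted and unnamed genes were left out. Of these candidates, the genes with the most similar pattern were named for Col1a1, Col3a1 and Col6a1 by the correlation of log2 CPM, scaled by TMM factors. For Col1a1 these were C3ar1, a complement receptor (Pearson's r = 0.993, Spearman's rho = 1), the ephrin gene Efna1 (r = 0.984) and the ADP-dependent glucokinase gene Adpgk (r = 0.983). For Col3a1 they were the RNA-binding protein gene Celf2 (r = 0.991), Mical2 (r = 0.980) and Pdf (r = 0.964). For Col6a1 they were Cybc1 (r = 0.978), Dpcd (r = 0.969) and Prkaa1 (r = 0.968). Without the 2 libraries farthest from the member's median, r was 0.995, 0.982 and 0.961 for the genes named with Col1a1, 0.963, 0.916 and 0.893 for those with Col3a1, and 0.912, 0.870 and 0.759 for those with Col6a1. The points share libraries and depth, and since each was picked as the highest of all candidates over only 6 libraries, no p is given.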

How the data were processed

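Trizol was used to extract RNA, of which 500 ng entered each Lexogen QuantSeq library, a 3′ end protocol, per the labels' protocols. Per the submitters' processing notes, the authors used bcl2fastq 2.20.0.422, fastp, STAR and HTSeq with the build GRCm39. Their options, annotation, strand setting and use of molecular identifiers were not stated there. What the authors deposited is a table per sample of raw counts by gene symbol. The number in each file's header is 1 above that of its title, and the title was followed. The chi-square of counts between any 2 libraries was at least 5.54 per degree of freedom, so no library was a copy.

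Counts were fitted over the whole table with edgeR 4.0.16 under R 4.3.3. Default filterByExpr settings (a count of 10, a total of 15) left 12776 of the 20496 genes seen in any library, and TMM factors were 0.989 to 1.02. The quasi-likelihood model held the treatment term alone, and p-values were adjusted by Benjamini-Hochberg over these genes (threshold 0.05). Each standard error was obtained by dividing the log2 fold change by the root of its F statistic. Levels are CPM on library totals, except that the correlations used CPM on totals scaled by TMM factors. Ratios of log2 counts used a pseudocount of 0.5 in the test and none in the values printed. The fits and the permutation test were tested on simulated data. The alternatives tried were scaling by library size or by DESeq2 size factors, no filter on counts, a filter of 5 CPM in 3 libraries, the tests of DESeq2 1.42.0 and of limma-voom (limma 3.58.1), a replicate block, a pseudocount of 1, each library left out, and, added after seeing the data, APB-R3 replicate 1 and vehicle replicate 2 left out together.

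The genes and lists were chosen with earlier results of these data known. By rule the text names the 10 collagen genes and, of each collagen-related list, the most abundant tested gene and that with the smallest p. Some genes of these lists were named outside this rule. Among them, Serpinh1 was named after its values were seen. Bgn, Postn, Timp1, Timp2, Timp3 and Ctsk were named for their direction or lack of overlap. The symbols and sequences come from GENCODE M21 and RefSeq for GRCm38, another build than that of the files, so no position is linked to a count. Protein sequences were not used here.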

Additional observations from a re-analysis of the deposited data

How the results depend on the processing

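No collagen gene among the 10 passed under any of the 14 alternatives, where their smallest adjusted p was 0.902. Over the table, 0 genes passed except with no filter on low counts (20 genes, 0 of them among the 10 collagens) and without vehicle replicate 3 (1 gene), so that leaving out 1 library gave 0 to 1. Of 135 fold changes of the 10 genes under alternatives, 129 kept their sign and 6 turned: Col1a1 to 0.043 without APB-R3 replicate 2, Col3a1 to −0.088 without APB-R3 replicate 3 and −0.02 without vehicle replicate 3, Col5a2 to 0.04 without APB-R3 replicate 1 and vehicle replicate 2, and Col6a1 to −0.069 without APB-R3 replicate 3 and −0.06 without vehicle replicate 3. Over all alternatives the log2 fold change ranged from −0.166 to 0.043 for Col1a1, −0.088 to 0.131 for Col3a1, −0.107 to −0.003 for Col5a1, −0.082 to 0.04 for Col5a2 and −0.069 to 0.356 for Col6a1. Of 72 differences of log2 ratios, 68 kept their sign and 4 turned, each with 1 library left out. These were Col3a1/Col1a1 (range over all alternatives −0.015 to 0.188), Col5a1/Col5a2 (−0.045 to 0.026, with 0.007 without APB-R3 replicate 2) and Col6a3/Col6a2 (−0.97 to 0.30). The cause was not tested. The 5 genes with few counts fell out at 5 CPM in 3 libraries, so that alternative gave no value for them. The difference of mean log2 levels of the summed fibrillar genes, −0.08, was −0.16 to −0.03 with 1 library left out, and that of the type VI genes, −0.38, was −0.57 to −0.28.

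With the replicate number as a block, 0 genes passed (539 at an unadjusted p under 0.05), and no call among the 10 changed. Same-numbered libraries deviated together only weakly (correlations of 0.0397, 0.0464 and 0.0674), so they were not treated as pairs. Each library correlated best with its own number, a hint from the data and not from the design. For the ratios, the block left each difference as it was (1.42 for Col11a1/Col5a1), and the exact sign-flip test over 3 pairs cannot go below p = 0.25. For the 5 genes with few counts, counting error alone was 15.1% to 22.4%. Their coefficient of variation over all libraries, group differences included, was 27.3% (Col6a1) to 54.9% (Col11a1). The intervals of these 5 genes, which also include the spread between libraries, reach from 0.245-fold to 5.67-fold.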
